A study of Mus musculus with 4 samples.

Results

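The BCL2 family decides whether a cell keeps its mitochondrial outer membrane intact, and 10 of its genes are described here in mouse bone marrow-derived macrophages. The 10 were taken by name from the gene symbols of the deposited tables, out of 55536 genes: the guardians Mcl1, Bcl2l1, Bcl2, Bcl2a1a, Bcl2a1b and Bcl2a1d, the BH3-only genes Bcl2l11 and Pmaip1, and the effectors Bax and Bak1. All 10 symbols were found. The cells were macrophages grown from C57BL/6J bone marrow and exposed for 60 minutes to 100 ng/mL of a stimulus. The labels name that stimulus lipid A, a Toll-like receptor 4 ligand, in one field and lipoprotein A in other fields. Polyadenylated RNA was sequenced in 4 libraries, numbered as biological replicates 1 to 4 of this 1 group. Sex and age were not collected, the donor label is the same for every library, and separate animals or cultures are not stated, so spreads between libraries may be technical. No unstimulated cells were analysed here, and no value below measures a response to the stimulus.

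Guardian proteins hold BAX and BAK in check by binding them or by binding the BH3-only proteins that would activate them. When BH3-only proteins outnumber free guardians, BAX and BAK form pores in the mitochondrial outer membrane, cytochrome c leaves, and APAF1 activates the caspases. In macrophages and neutrophils the guardian A1, encoded in mouse by the Bcl2a1 paralogs, is known as a target of NF-κB, and MCL1 is a short-lived protein that myeloid cells need to survive. Levels are given in TPM, a relative abundance that is corrected for transcript length and sums to the same total in every library. Positions are those of GENCODE M21 on mm10.

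The Bcl2a1 paralogs lie on chromosome 9, and their transcripts were 98.2% to 99.1% identical in pairs, so reads can fit more than 1 of them. Bcl2a1d occupies 88723285 to 88731914 on the minus strand, Bcl2a1a 88956900 to 88962419 on the plus strand and Bcl2a1b 89199209 to 89207827 on the plus strand, with gaps of 225.0 kb and 236.8 kb between them. Each has 1 annotated transcript of 2 exons with 516 coding bases that encode 172 amino acids. The start of the coding sequence is shown because 7 of the 12 coding positions at which the paralogs differ fall in its first 120 bases. Capitals mark those positions, and the sequences were read from the GENCODE M21 transcripts (mm10 chr9:88957051-88957170, plus strand, for Bcl2a1a; chr9:89199360-89199479, plus strand, for Bcl2a1b; chr9:88731600-88731719, minus strand, for Bcl2a1d).
Bcl2a1a: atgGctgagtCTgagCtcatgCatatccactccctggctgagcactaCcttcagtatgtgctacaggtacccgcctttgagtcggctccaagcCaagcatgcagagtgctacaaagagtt
Bcl2a1b: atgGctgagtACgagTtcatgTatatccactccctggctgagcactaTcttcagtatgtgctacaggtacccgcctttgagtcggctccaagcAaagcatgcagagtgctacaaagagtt
Bcl2a1d: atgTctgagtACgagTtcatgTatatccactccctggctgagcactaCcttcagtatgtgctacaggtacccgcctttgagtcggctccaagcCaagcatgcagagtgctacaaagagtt
Over the whole coding sequence Bcl2a1a differed from Bcl2a1b at 11 bases and 8 residues, Bcl2a1a from Bcl2a1d at 7 bases and 6 residues, and Bcl2a1b from Bcl2a1d at 6 bases and 4 residues. The 3 paralogs and the related gene Bcl2a1c were also compared in short stretches. Of all 31-base stretches of its transcript, 26.7% were found in Bcl2a1b alone among these genes, 20.4% in Bcl2a1a and 10.9% in Bcl2a1d. At 100 bases these shares were 68.9%, 56.5% and 45.3%.

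A stretch upstream of the 3 transcripts was also nearly identical. In the RefSeq promoter windows (GRCm38.p6), which run from 250 bases before to 50 bases after a gene's start, Bcl2a1a and Bcl2a1b were identical over a stretch of 142 bases (chr9:88956714-88956855 and chr9:89199023-89199164, plus strand). The same stretch of Bcl2a1d (chr9:88731915-88732050, minus strand) differed at 1 base and lacked 6. The stretch ends next to the annotated start of Bcl2a1d and 44 bases before that of Bcl2a1b, and the rest of the windows was not compared. It is shown because the genes that share it stood at very different levels. Capitals mark the differing base and the bases that Bcl2a1d lacks.
Bcl2a1a and Bcl2a1b: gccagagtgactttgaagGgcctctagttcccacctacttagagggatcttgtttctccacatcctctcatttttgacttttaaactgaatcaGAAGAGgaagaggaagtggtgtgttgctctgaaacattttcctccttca
Bcl2a1d: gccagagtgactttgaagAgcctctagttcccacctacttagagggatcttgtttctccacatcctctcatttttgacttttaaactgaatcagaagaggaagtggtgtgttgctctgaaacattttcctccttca
The motif GAGGAA, a core that the macrophage factor PU.1 and other ETS factors can bind, was searched on both strands with overlapping matches counted. It matched 3 times in the 300-base window of Bcl2a1a, 4 times in that of Bcl2a1b and 2 times in that of Bcl2a1d. Of 27025 mouse promoter windows of this length, 28.3% held it at least once and 4.84% more than once. A match is a description of the letters only. Promoter windows were found for 9 of the 10 genes. Among the others, Bcl2 and Bak1 held 1 match each and Mcl1, Bcl2l1, Bcl2l11 and Bax held none.

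Total gene counts per library ranged from 26917324 in replicate 1 to 39438414 in replicate 4. The 8 macrophage markers checked were each above 1 TPM in every library. Their levels were uneven too, with a summed TPM of 19637, 35202, 20390 and 28238 in replicates 1, 2, 3 and 4. Lyz2 alone had 14541, 28530, 14293 and 21375 TPM. Single markers differed in order: in replicate 1 Csf1r was at its lowest, 526 TPM, and Itgam at its highest, 152 TPM. Neutrophil and granulocyte precursor markers were present at a lower and uneven level: their summed TPM was 198, 108, 729 and 69.0 in replicates 1, 2, 3 and 4, with 4 of the 8 markers, S100a8, S100a9, Ngp and Ltf, above 1 TPM in every library. Summed mast cell and basophil markers stood between 0.59 and 2.19 TPM with Mcpt4 at 0, B cell markers at 0.22 TPM or less, and T and NK cell markers at 0.44 TPM or less. Ribosomal RNA genes, the mitochondrial ones included, took 12.4% of the counts in replicate 1 and 3.43% to 7.28% in the others. Replicates 1 and 2 came from 6 read files each, per the deposited file lists, and replicates 3 and 4 from 4 each.

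All 10 genes reached 1 TPM in every library, and 5 of them averaged at least 100 TPM. Across all nuclear protein-coding genes, 9629 of 22015 reached 1 TPM in every library and 1144 averaged at least 100 TPM. In order of mean level the genes were Bcl2a1b, Mcl1, Bcl2a1d, Bcl2l11, Bax, Bak1, Bcl2l1, Pmaip1, Bcl2a1a and Bcl2. The guardians thus held both ends of the order.

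**Figure D1:**
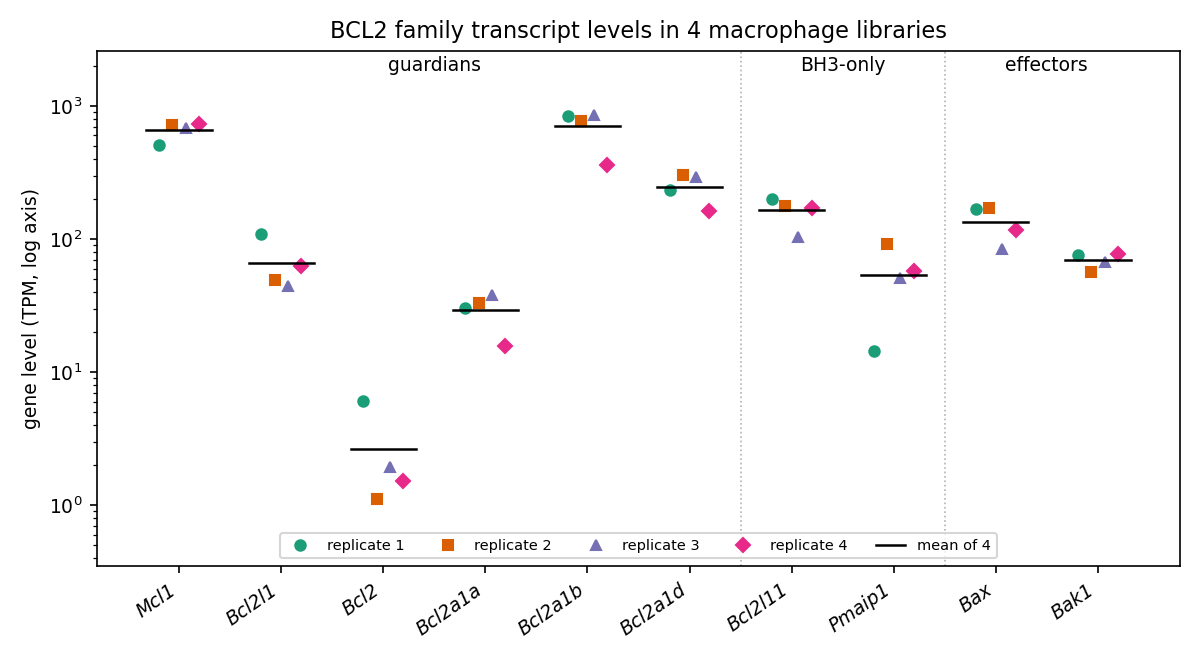
Level in TPM on a log axis of the 10 genes in each of the 4 libraries, 1 marker per replicate, with a bar at the mean, genes grouped as guardians, BH3-only genes and effectors. Bcl2a1b and Mcl1 average 706 and 659.6 TPM, while Bcl2 averages 2.65 TPM.

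Among the guardians, Bcl2a1b had 840.2, 777, 849 and 359 TPM in replicates 1, 2, 3 and 4, a mean of 706 ± 234 (SD, n = 4), which put it at rank 168 of 22015 protein-coding genes. Replicate 4 was far below the other libraries, which lay close together. Mcl1 (chromosome 3, 95658788 to 95663176, plus strand) had 510.1, 721, 679.8 and 728 TPM, a mean of 659.6 ± 102 (SD, n = 4) and rank 180. Here replicate 1 was the low library and replicates 2 to 4 lay close together. Bcl2a1b was above Mcl1 in replicates 1, 2 and 3 and below it in replicate 4. The mean difference was 0.03 ± 0.75 on the log2(TPM + 0.1) scale (SD, n = 4), and the paired exact permutation test gave a 2-sided p of 0.875.

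Bcl2a1d followed with 234, 303, 291 and 162 TPM, a mean of 248 ± 64.2 (SD, n = 4). It was again lowest in replicate 4. Bcl2a1a, the least abundant paralog, had 30.4, 33.3, 37.6 and 15.8 TPM, a mean of 29.3 ± 9.48 (SD, n = 4). All 3 paralogs were therefore lowest in replicate 4, and they are not independent of each other, since they share most of their sequence. Bcl2a1b stood 24.1 ± 2.40 times above Bcl2a1a and 2.82 ± 0.588 times above Bcl2a1d (SD, n = 4). The ratio to Bcl2a1a ranged from 22.6 in replicate 3 to 27.7 in replicate 1. The upstream stretches printed above are the same letter for letter, but the rest of the windows was not compared. The part of upstream sequence in these levels was not tested.

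Bcl2l1, which encodes BCL-XL, lies on chromosome 2 (152780668 to 152831728, minus strand) and had 109, 48.9, 44.3 and 62.2 TPM, a mean of 66.2 ± 29.8 (SD, n = 4). Replicate 1 was the high library. Mcl1 exceeded Bcl2l1 in every library, by 3.40 ± 0.80 on the log2 scale of the TPM ratio (SD, n = 4), or 10.5-fold. Bcl2, the founding member of the family, lies on chromosome 1 (106538178 to 106714274, minus strand) and had 6.01, 1.11, 1.94 and 1.53 TPM, a mean of 2.65 ± 2.27 (SD, n = 4) and rank 9115. It was the lowest of the 10 genes in every library, and its high value in replicate 1 rested on 721 counts, against 147, 327 and 267 in replicates 2, 3 and 4. Lymphocytes are known for Bcl2 expression. In replicates 1 to 4 the summed B cell markers were at 0.12, 0.08, 0.22 and 0.06 TPM and the summed T and NK cell markers at 0.37, 0, 0.44 and 0.05 TPM. Their part in the Bcl2 values was not tested.

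Summed over the 3 paralogs, Bcl2a1 had 1105, 1113, 1178 and 538 TPM in replicates 1, 2, 3 and 4. Relative to Mcl1 this was 1.11, 0.63, 0.79 and -0.44 on the log2 scale of the TPM ratio, a mean of 0.52 ± 0.67 (SD, n = 4). The sum was above Mcl1 in replicates 1 to 3 and below it in replicate 4, so the sign was not shared by all libraries. Bcl2a1 held 63.8%, 59.1%, 61.9% and 40.4% of the summed guardian TPM in replicates 1 to 4, and Mcl1 29.5%, 38.3%, 35.7% and 54.8%. Neutrophils are known for high Bcl2a1 levels, and the neutrophil markers given above were lowest in replicate 4, as the paralogs were. Replicate 3 exceeded replicate 2 by a ratio of 6.74 in summed neutrophil markers and of 1.06 in the Bcl2a1 sum. The part of neutrophil RNA in the Bcl2a1 values was not tested, and in bulk RNA fewer cells of a type and less RNA per cell cannot be told apart.

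Each paralog has 3 deposited estimates, which show how far the split between copies depends on the way it was estimated. They rest on the same reads and the same annotation, so an error that all 3 share would not show. The maximum likelihood values gave Bcl2a1a 2.97% ± 0.18, Bcl2a1b 71.2% ± 3.89 and Bcl2a1d 25.8% ± 3.83 of the summed Bcl2a1 TPM (SD, n = 4). A second quantification, made from the reads without the alignment, gave 2.94%, 70.9% and 26.1%. The share of Bcl2a1b was 76.1%, 69.8%, 72.1% and 66.8% in replicates 1, 2, 3 and 4, so it varied more between libraries than between the estimates. Expected counts were 8258 in replicate 1, 8548 in replicate 2, 11542 in replicate 3 and 5120 in replicate 4 for Bcl2a1b, and 225 to 513 for Bcl2a1a. The deposited posterior SD of the count, which covers the assignment of shared reads, was 0.142% to 0.232% of the count for Bcl2a1b, 0.404% to 0.526% for Bcl2a1d and 2.15% to 3.26% for Bcl2a1a.

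**Figure D2:**
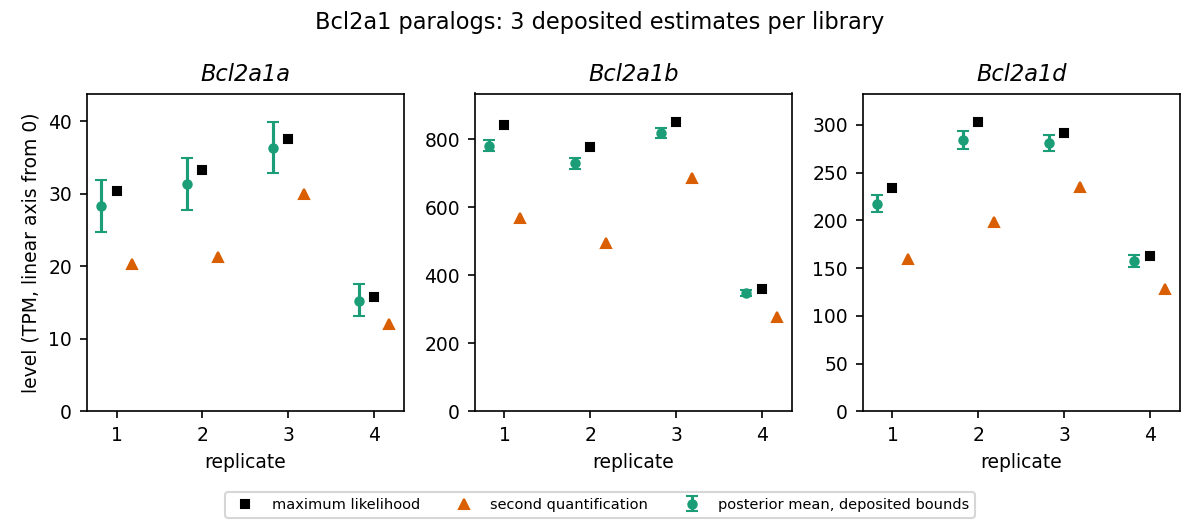
Level in TPM of Bcl2a1a, Bcl2a1b and Bcl2a1d in replicates 1 to 4 as posterior mean with deposited bounds (circles with bars), maximum likelihood value (squares) and second quantification (triangles), each panel on its own linear axis from 0. Replicate 4 is the lowest library for every paralog and estimate; the second quantification lies below the other estimates in all 4 libraries.

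The deposited TPM bounds, a credibility interval whose level is not stated, go with the posterior mean and not with the maximum likelihood value. In replicate 1 the bounds for Bcl2a1b were 764 to 798 TPM around a posterior mean of 781, and the maximum likelihood value of 840.2 lay above them. In replicate 4 they were 338 to 357 TPM, and the value of 359 again lay above. For Bcl2a1a the bounds were 24.8 to 31.9 TPM in replicate 1 and 13.1 to 17.5 TPM in replicate 4, so these libraries differed by more than the bounds. In no library did the bounds of any paralog overlap those of another. Once both quantifications were rescaled over nuclear protein-coding genes, the second stood at 0.884, 0.889 and 0.901 of the gene table for Bcl2a1a, Bcl2a1b and Bcl2a1d. Mcl1 stood at 1.01, and the median over 10202 protein-coding genes was 0.962. Bcl2a1b overlaps an annotated protein-coding gene on the same strand, Gm29094 at 7.4 TPM, and Bcl2a1d overlaps the antisense gene Gm10634 at 0.613 TPM. Bax overlaps Gm45808 on the same strand, at 0.665 TPM, and Bak1 overlaps Ggnbp1 on the opposite strand. Reads from the overlap of a same-strand pair fit both genes, and for the pairs on opposite strands the strand setting was not stated, so such reads may be counted for either gene.

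Of the BH3-only genes, Bcl2l11, which encodes BIM, a direct activator of BAX and BAK, lies on chromosome 2 (128126038 to 128162547, plus strand). It had 201, 178, 104 and 172 TPM, a mean of 164 ± 41.7 (SD, n = 4) and rank 725. Replicate 3 was the low library. Pmaip1, which encodes NOXA, a sensitizer that binds MCL1 and A1, lies on chromosome 18 (66458533 to 66465565, plus strand) and had 14.3, 91.2, 50.7 and 57.7 TPM, a mean of 53.5 ± 31.5 (SD, n = 4). Replicate 1 was lowest and replicate 2 highest. Bcl2l11 was above Pmaip1 in every library, by 3.82, 0.97, 1.04 and 1.58 on the log2 scale of the TPM ratio in replicates 1, 2, 3 and 4.

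The effector Bax (chromosome 7, 45461697 to 45466898, minus strand) had 168, 170.0, 84.4 and 117 TPM, a mean of 135 ± 41.8 (SD, n = 4). Replicates 1 and 2 were high and replicates 3 and 4 low, the same split as the number of read files; the part of that difference in the values was not tested. Bcl2l11 had the same order in these TPM values only narrowly, with 172 TPM in replicate 4 just below 178 TPM in replicate 2. In the second quantification described above, its replicate 4 was the highest library, at 150 TPM, and replicate 2 had 119 TPM. Bak1 (chromosome 17, 27019810 to 27029009, minus strand) was the steadiest of the 10 genes on the log2(TPM + 0.1) scale, with 75.9, 56.0, 67.7 and 76.5 TPM and a mean of 69.0 ± 9.56 (SD, n = 4). These gene values sum all Bak1 transcripts. Bak1-202, the transcript of the 209-residue protein, averaged 16.3 ± 6.03 TPM (SD, n = 4) in the first of the transcript tables compared below. Bax exceeded Bak1 in every library, by 0.92 ± 0.57 on the log2 scale of the TPM ratio (SD, n = 4). Summed guardians exceeded summed effectors by 3.08 ± 0.40 on the same scale (SD, n = 4), or 8.44-fold, with 1730.1, 1883, 1904 and 1329 TPM of guardians against 244, 226, 152 and 193 TPM of effectors in replicates 1 to 4. These are transcript ratios, and protein was not measured.

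Neighbours in the order of levels were compared within libraries by a paired exact permutation test, whose smallest possible p with 4 libraries is 0.125. Of the 9 neighbouring pairs, Mcl1 over Bcl2a1d, Bax over Bak1 and Bcl2a1a over Bcl2 held in 4 of 4 libraries with ranges that did not overlap. Their mean differences were 1.44, 0.92 and 3.65 on the log2(TPM + 0.1) scale, each with an exact 2-sided p of 0.125 and an adjusted p of 0.281. Bcl2l11 was above Bax in 4 of 4 libraries by a mean of 0.30, with overlapping ranges. The other 5 pairs had overlapping ranges and held in 2 or 3 of 4 libraries. Bcl2l1 and Pmaip1, for example, were each the higher gene in 2 libraries.

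Variation between libraries was read against counting noise with a chi-square test on expected counts, adjusted by Benjamini-Hochberg over all genes tested. Calling a gene variable also needed a highest scaled count of at least 2 times the lowest. By this rule 5 of the 10 genes were called, against a background of 33% of 12626 genes tested. The chi-square test without the fold rule passed all 10, the highest adjusted p being 9.57e-26 for Bak1, against a background of 88.6%, so passing it says little about any gene. The called genes were Pmaip1 with a highest to lowest ratio of scaled counts of 6.47, Bcl2 with 5.39, Bcl2l1 with 2.41, Bcl2a1a with 2.39 and Bcl2a1b with 2.37. Bax at 1.95, Bcl2a1d at 1.80, Bcl2l11 at 1.59, Mcl1 at 1.57 and Bak1 at 1.37 were not called. The median ratio was 2.16 over the 10 genes and 1.68 over all genes tested.

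Each call rested on 1 library. Without replicate 1 the ratios of Pmaip1, Bcl2 and Bcl2l1 dropped to 1.75, 1.86 and 1.46, and 2 of 10 genes remained called, against 16.1% of all genes tested. Without replicate 4 those of Bcl2a1a and Bcl2a1b dropped to 1.33 and 1.13, and 3 of 10 were called, against 29.2% of all genes tested. Ribosomal RNA counts were highest in replicate 1, as given above, and their part in the values was not tested.

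**Figure D3:**
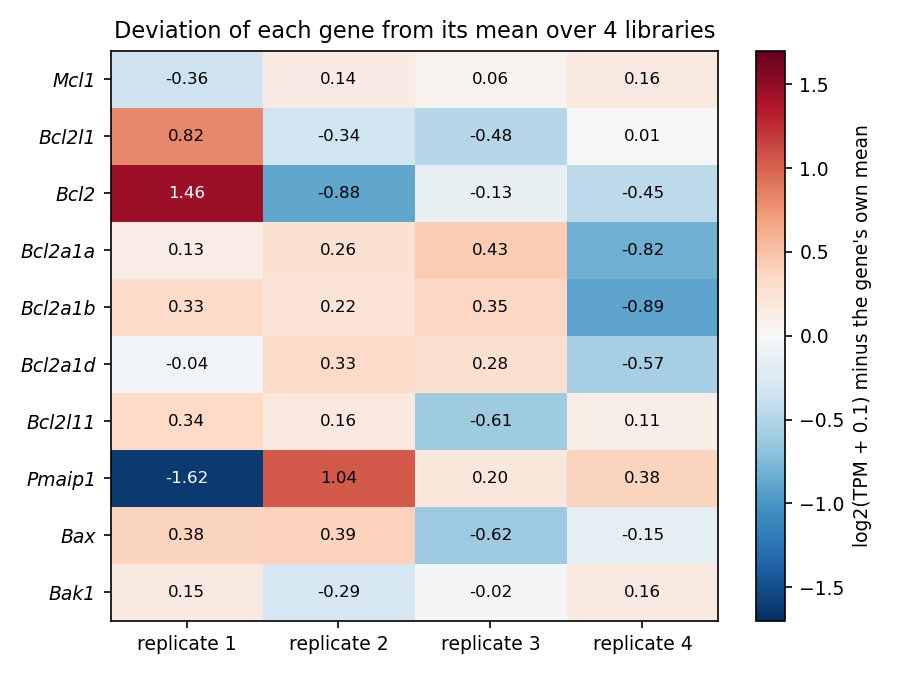
Heat map of log2(TPM + 0.1) in each library minus the mean of that gene over the 4 libraries, genes in rows and replicates in columns, with the value printed in each cell. Pmaip1 and Bcl2 deviate most in replicate 1, by -1.62 and 1.46, and the 3 Bcl2a1 paralogs are lowest in replicate 4.

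For each of the 5 called genes, the 3 protein-coding genes with the most similar pattern were found among 6435 candidates of at least 10 TPM. Likeness was the root mean square difference of log2(TPM + 0.1) deviations over the 4 libraries, a description with no test. Cd86, which encodes a costimulatory ligand of antigen-presenting cells, was nearest to Pmaip1 at 0.059, followed by Tmem176b and Man2a2. Cd86 had 9.24, 64.0, 34.0 and 41.5 TPM in replicates 1 to 4. Ckap4 was nearest to Bcl2 at 0.034, with 30.1, 6.20, 10.1 and 8.40 TPM, followed by Gins2, a subunit of the replication complex GINS, and Cdca7l. Tbrg4, Lonrf3 and Acot7 were nearest to Bcl2l1, at 0.061 to 0.071. Luc7l3, a splicing factor gene, was among the nearest of both Bcl2a1a and Bcl2a1b, beside Eif2s2 and Xrcc4 for Bcl2a1a and Ttc14 and Hnrnph1 for Bcl2a1b. Within a difference of 0.2 lay 136 genes for Bcl2l1 and 9 for Pmaip1, so some patterns were much more common than others.

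The annotated transcripts of each gene were compared in the 2 transcript tables, of which the first goes with the gene table and the second with the second quantification. Bcl2l11 was read mostly as Bcl2l11-205, which encodes the 196-residue form that corresponds to BIM-EL. This transcript held 62.4%, 68.3%, 81.8% and 71.1% of the gene's TPM in replicates 1 to 4 in the first table and a mean of 66.7% in the second. Bcl2l11-203, the 140-residue form that corresponds to BIM-L, held 19.8%, 13.3%, 5.39% and 14.9%. The 2 transcripts of the 110-residue form that corresponds to BIM-S together held 13.8%, 9.74%, 2.80% and 5.61%. Replicate 3 thus had the highest share of the longest form and the lowest shares of these 2 shorter forms, in both tables.

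Bcl2l1 was read mostly as transcripts of the 233-residue BCL-XL protein, Bcl2l1-201 and Bcl2l1-202, which differ in their first exon. They held 38.1% ± 5.64 and 44.1% ± 5.70 in the first table and 28.6% ± 6.27 and 46.3% ± 6.37 in the second (SD, n = 4). Bax was read as 82.0% ± 3.06 Bax-201, the 192-residue protein, and 11.3% ± 2.90 Bax-203 in the first table (SD, n = 4), with 81.9% and 11.0% in the second. Bcl2-201 held 95.5% of Bcl2 in the first table and 84.7% in the second, and Bcl2-202 held 4.49% and 15.3%. This split rests on the 147 to 721 counts that Bcl2 had per library.

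Most of the TPM of Bak1 fell on transcripts annotated for nonsense-mediated decay, the pathway that destroys messages with an early stop codon. Bak1-201 and Bak1-204 together held 55.3%, 59.2%, 57.7% and 64.5% in replicates 1, 2, 3 and 4 in the first table, a mean of 59.2% ± 3.91 (SD, n = 4), and 60.1% ± 3.84 in the second (SD, n = 4). Bak1-202, which encodes the 209-residue protein, held 23.8% ± 8.04 and 21.2% ± 4.54 (SD, n = 4), and Bak1-203 17.1% and 18.7%. The coding difference of Bak1-201 is a 20-base exon, in capitals here between 15 bases on each side (chr17:27021663-27021682, minus strand), shown above the same junction in Bak1-202. The coding difference of Bak1-204 is the loss of 5 bases at the start of an exon, in capitals on the last line as they stand in Bak1-202 (chr17:27022873-27022877, minus strand).
Bak1-201: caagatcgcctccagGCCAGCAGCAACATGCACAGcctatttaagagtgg
Bak1-202 at the same junction: caagatcgcctccagcctatttaagagtgg
Bak1-202 with the bases skipped in Bak1-204: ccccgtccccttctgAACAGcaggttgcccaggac
Neither length is a multiple of 3, and both transcripts are annotated with shorter proteins, of 151 residues for Bak1-201 and 79 for Bak1-204. In mouse neurons a Bak1 message with a small extra exon is known; whether it is this exon was not examined. Reads across the junctions were not counted here, so these shares are estimates of the quantification and not counts of spliced reads.

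Pmaip1 and Mcl1 also differed between libraries or tables in how they were read. Pmaip1-201, which encodes the 103-residue NOXA protein, held 100%, 98.6%, 55.9% and 82.3% of Pmaip1 in the first table and 93.1%, 96.4%, 72.5% and 97.7% in the second, in replicates 1 to 4. The remainder in replicate 3 was mostly Pmaip1-203, a 51-residue form, with 43.6% in the first table and 27.1% in the second, while it was at 0 in replicates 1 and 2 in both tables. In replicate 4 it held 15.6% in the first table and was at 0 in the second. Mcl1 was read as Mcl1-201, the 331-residue protein, at no less than 99.9% in every library of the first table. In the second table Mcl1-202, chosen for mention after its values were seen, held 17.3% in replicate 1, 8.81% in replicate 2 and under 0.1% in replicates 3 and 4. That split follows the number of read files, whose part was not tested. Mcl1-202 encodes 285 residues and lacks 138 coding bases near the start of the protein, shown in capitals between 15 bases on each side because the tables differ in how they treat them (chr3:95658909-95659046, plus strand).
Mcl1-201: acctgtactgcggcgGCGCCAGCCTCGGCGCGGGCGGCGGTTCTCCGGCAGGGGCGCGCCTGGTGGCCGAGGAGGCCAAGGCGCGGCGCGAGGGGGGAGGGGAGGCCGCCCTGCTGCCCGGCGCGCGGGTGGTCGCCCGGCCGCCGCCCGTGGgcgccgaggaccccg
An isoform share that the tables give differently is not settled by either.

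**Figure D4:**
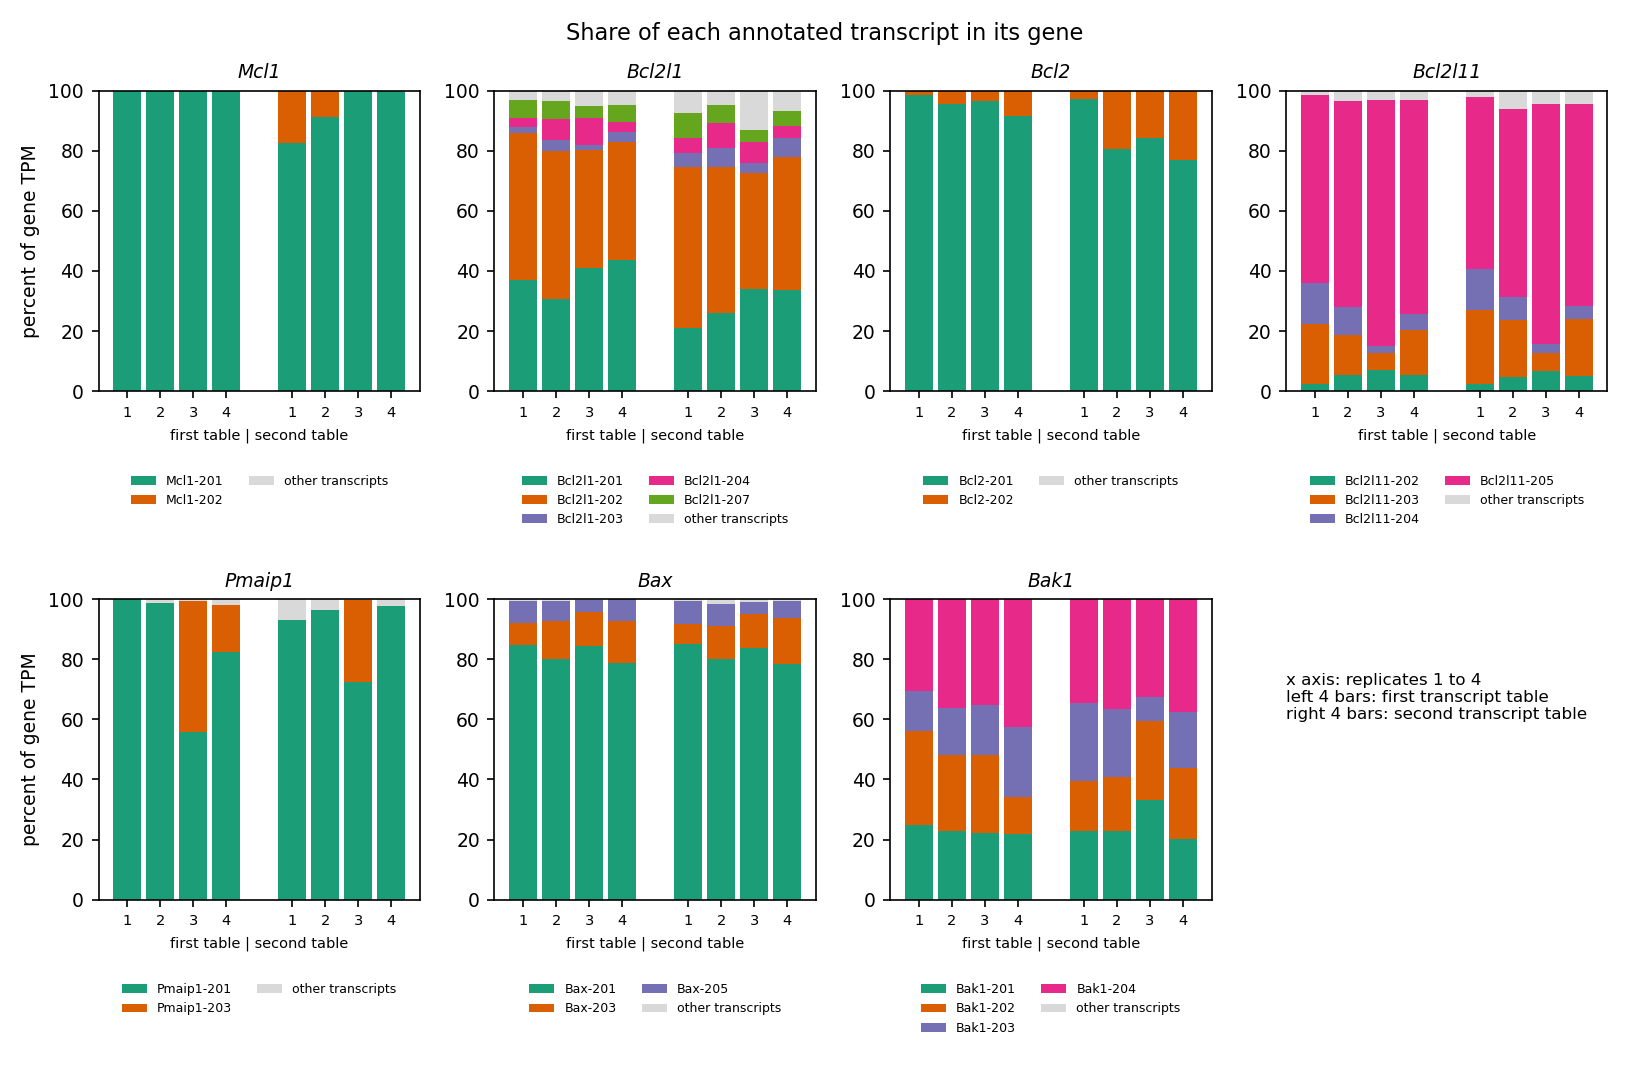
Share in percent of each annotated transcript in the TPM of its gene for Mcl1, Bcl2l1, Bcl2, Bcl2l11, Pmaip1, Bax and Bak1, as stacked bars for replicates 1 to 4 in the first transcript table (left) and the second (right), with transcripts under 5% in both tables pooled in grey. Bak1-201 and Bak1-204 take 59.2% and 60.1% of Bak1 on average in the first and second tables, and Mcl1-202 appears in replicates 1 and 2 of the second table.

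Of the 16 other family members listed, 9 reached 1 TPM in every library and 3, Bcl2l10, Bok and Hrk, were at 0 in all 4. The most abundant was Bnip3l, a mitophagy receptor, with 54.0, 58.8, 125.5 and 65.4 TPM in replicates 1 to 4, followed by Bad, a sensitizer that binds BCL2 and BCL-XL, at 44.1 TPM and Bid, which caspase-8 cleaves into an activator, at 21.4 TPM. Bcl2l13 averaged 20.6, Bnip3 15.3, Bcl2l2, the guardian BCL-W, 11.6 and Bcl2l12 7.75 TPM. Bbc3, which encodes the BH3-only protein PUMA, averaged 4.43 TPM and Bmf, another BH3-only gene, 1.86 TPM. Bmf had 0.40, 3.25, 1.01 and 2.77 TPM and was, like Pmaip1, lowest in replicate 1 and highest in replicate 2. Bcl2a1c, at 2.33 TPM on 4 to 21 counts, was too low to be tested. Bbc3 and Bmf were 2 of the 9 tested that were called variable.

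All 15 listed genes of the caspase cascade and its inhibitors reached 1 TPM in every library. The highest were Cflar, the inhibitor of caspase-8 activation, at 195 ± 18.9 TPM, Birc3, the ubiquitin ligase cIAP2, at 124 ± 46.5 TPM, Casp8 at 65.1 ± 7.73 TPM and Apaf1 at 45.1 ± 14.5 TPM (SD, n = 4). The lowest were Birc5, the mitotic protein survivin, at 5.48 TPM and the adaptor gene Fadd at 6.98 TPM. Of the 15, 3 were called variable: Birc5 with a highest to lowest ratio of scaled counts of 8.90, Cycs, the gene of cytochrome c, with 3.06 and Birc3 with 2.09. Birc3 had 80.3, 184, 94.7 and 137 TPM and was also lowest in replicate 1 and highest in replicate 2.

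The 8 genes of the p53, FOXO, stress and ubiquitin pathways that were listed as upstream regulators all reached 1 TPM in every library. Cdkn1a, a p53 target that encodes a cell cycle inhibitor, averaged 1045 ± 344 TPM and Mdm2, the ubiquitin ligase of p53, 265 ± 82.3 TPM (SD, n = 4). Ddit3, which encodes the stress factor CHOP, averaged 79.7 TPM, and Usp9x, a deubiquitinase of MCL1, 49.6 TPM. Foxo3 at 17.0 TPM and Fbxw7, part of a ubiquitin ligase that targets MCL1, at 14.0 TPM were the lowest. Cdkn1a, Mdm2, Foxo3 and Fbxw7, 4 of the 8, were called variable, with ratios of 2.03, 2.02, 2.28 and 2.22. These shares of called genes, 22.2%, 20% and 50% for the 3 lists, stand beside the 33% of all genes tested, and the lists hold few genes.

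**Figure D5:**
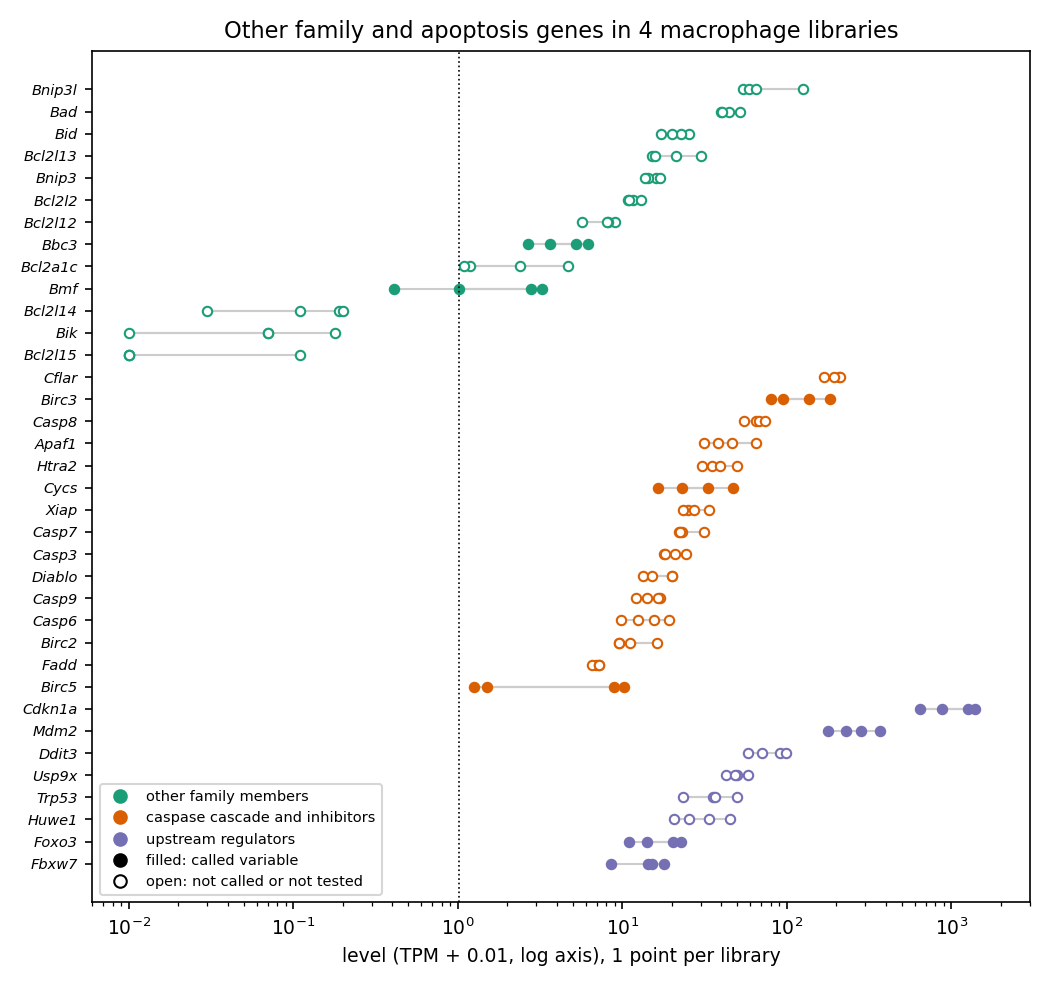
Level in TPM plus 0.01 on a log axis of the listed other family members, caspase cascade genes and upstream regulators with a mean of at least 0.01 TPM, 1 point per library, filled where the gene was called variable; the dotted line marks 1 TPM. Cflar and Birc3 lead the caspase list at 195 and 124 TPM and Cdkn1a the regulators at 1045 TPM.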

How the data were processed

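Polyadenylated RNA of 4 libraries of 1 group was analysed from 3 deposited tables per library. Per the deposited file lists, all are on mm10 with GENCODE M21; which aligner, quantifier and strand setting were used is not given in the sources used here. Per the file headers, gene tables and first transcript tables, made from a transcriptome alignment, hold expected counts and TPM, as maximum likelihood values and posterior means. They also hold deposited bounds of the TPM and a posterior SD of the count, a non-negative signal on the scale of its estimate. The deposited first transcript table gives each transcript's percent of its gene. The second transcript table, made from the reads, holds deposited estimated counts and TPM, here summed to genes. Of the 81881 rows of a gene table, 55536 are genes; the other rows took 0.103% to 0.118% of counts and were left out.

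Expected counts were rounded. TMM library sizes were computed with edgeR 4.0.16 under R 4.3.3, and alternative ones with DESeq2 1.42.0; all else used Python 3.11.15, pandas 2.3.3, SciPy 1.17.1, Biopython 1.88 and matplotlib 3.10.9. With 1 group there was no contrast to test. Genes averaging 10 or more counts were tested by chi-square with 3 degrees of freedom against library size, at an adjusted p of 0.05, and called variable with a 2-fold range as well. This covers counting error only, and counts of fragments are not independent molecules. The test was first tried on simulated data with counting noise only and, for some genes, a fold planted in 1 library. Those data lack any further spread between real libraries, so they do not measure false calls in them. Neighbours in level were compared by an exact sign-flip test on log2(TPM + 0.1), adjusted over 9 pairs. The pseudocount shrinks differences of low genes.

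The 10 genes, the other lists and the markers were chosen with earlier results of these data known, so no list is independent evidence. Of the lists, every other family member averaging 1 TPM or more was named, and from the other 2 lists the 4 highest, the 2 lowest and any called variable. Transcripts were named at a mean share of 10% in either table. Promoter sequences are RefSeq's, transcripts GENCODE's.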

Additional observations from a re-analysis of the deposited data

Results flagged for a closer look

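For 44 sets of values, each over 4 libraries, the highest or lowest value was checked for its distance from the other 3. The sets included the TPM of the 10 genes and of other family members averaging 1 TPM or more, and ratios and shares. Genes of the caspase and regulator lists were not checked. By chance about 1 in 20 such sets is marked. There were 3 marked values. Bcl2 stood at 6.01 TPM in replicate 1, with the nearest library at 1.94 TPM. Bcl2a1b stood at 359.37 TPM in replicate 4, with the nearest library at 777 TPM. Bnip3l, the mitophagy receptor gene, stood at 125.5 TPM in replicate 3, with the nearest library at 65.36 TPM; replicate 3 also had the highest summed neutrophil markers, 729 TPM, whose part in the value was not tested.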

How the results depend on the processing

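The number of the 10 genes called variable between libraries, 5, was 9 when a 1.5-fold range sufficed, against 58.2% of all genes tested, and 2 to 5 when a library was left out, against 16.1% to 29.2%. It was 5 with DESeq2 size factors, against 33.1% of all genes tested, and 5 with total counts, against 33.3%. Without a filter on counts it was also 5, against 24.4%, and for genes averaging 100 counts or more again 5, against 24.6%. With the second quantification it was 6, against 36.1% of all genes tested, and Bax was called as well at a ratio of 2.23. Over all genes tested the number, 4167 of 12626, was 2377 of 9663 for genes averaging 100 counts or more, 5177 of 21189 without a filter, 5168 of 14302 with the second quantification, 7347 of 12626 with a 1.5-fold range, and 2048 to 3683 when a library was left out. The log2 ratio of the Bcl2a1 sum to Mcl1 was 0.35 with the second quantification and 0.33 to 0.84 with a library left out. The share of Bcl2a1b ranged from 69.6% to 72.7% with a library left out. Of the 9 neighbour pairs, 8 kept their order in the second quantification, where Mcl1 averaged 539.6 TPM and Bcl2a1b 506 TPM, and 7 to 9 with a library left out. In the second quantification 9 of the 10 genes reached 1 TPM in every library; Bcl2 had 0.855 TPM in replicate 2. With TPM rescaled over nuclear protein-coding genes, ratios between genes do not change, and Mcl1 averaged 812 and Bak1 85.4 TPM. The SD of Bcl2 on the log2 scale was 1.02 with a pseudocount of 0.1 and 0.77 with 1. No paired analysis was possible because with 1 group there is no second group whose replicates could be paired; the test of neighbouring genes pairs values within a library instead. Depth limits Bcl2, with 147 to 721 counts, and Bcl2a1a, with 225 to 513, more than the others.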
